A study of Homo sapiens with 8 samples.

Results

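The replication-dependent histone genes encode the linker histone H1 and the core histones H2A, H2B, H3 and H4 that package newly copied DNA. They were taken as the array's transcript clusters whose single platform gene symbol is H1-1 to H1-6 or begins with H2AC, H2BC, H3C or H4C and a digit, which gave 58 of the 18417 genes measured. Of these, 6 encode H1, 14 H2A, 17 H2B, 8 H3 and 13 H4. In RefSeq 57 are protein coding and H2BC19P is a pseudogene; 49 lie on chromosome 6, 8 on chromosome 1 and H4C16 on chromosome 12. Each member had a single such cluster, and no filter on low values was applied, so all 58 were tested. H4C14 and H4C15 hold identical values on all 8 arrays, which leaves 57 distinct sets of values. Another 20 clusters list a histone gene together with other symbols and were kept out.

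Total RNA was measured on 8 Affymetrix arrays, 1 for each condition, from 2 human multiple myeloma cell lines, U266/s, described as the parental line, and U266/LR7, its melphalan-resistant derivative. Each line was sampled as a control with a negative control oligonucleotide, with melphalan at 100 µM, with inhibitors of miR-221 and miR-222 at 100 nM, and with both agents, 12 h after treatment. Melphalan is an alkylating drug that crosslinks DNA. The labels of the 2 arrays with melphalan alone give no transfection in one field, while the growth protocol describes transfection of all cells; if the former is right, the transfection differs between those arrays and the rest. Each line is a single derived population, and the labels do not say that arrays came from separate cultures.

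Values are log2 signals as deposited, and a fold is a difference of log2 signals. No condition was replicated. Melphalan was therefore read within a line as the 2 arrays with it minus the 2 without it, from a limma model over all 8 arrays with line, melphalan, inhibitors and a melphalan by line term. Errors after ± are standard errors from that model unless named as SD, and "rose", "fell" and "called" mean a Benjamini-Hochberg adjusted p under 0.05 over all 18417 genes in limma's moderated test. The spread that enters these p-values is that between the arrays at hand and may be technical. It is the departure from a constant inhibitor difference across lines and melphalan states, not a spread between replicates. Technical scatter and inhibitor effects that vary with line or melphalan cannot be told apart in it. In bulk RNA, fewer cells in S phase and less histone mRNA per cell cannot be told apart.

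The middle 50% of all cluster values spanned 3.58 to 3.71 log2 units on 6 arrays; the U266/s arrays with melphalan alone (3.25) and with both agents (3.34) were narrower. Of 10 plasma cell markers, 7, among them SDC1, PRDM1, IRF4 and XBP1, lay above the upper quartile of genes on all 8 arrays. No T and NK cell marker (of 6), myeloid marker (of 5) or epithelial and stromal marker (of 6) did so; CD2, CD3D, CD3G, LYZ and FCGR3A lay under the lower quartile on every array.

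Replication-dependent histone genes are transcribed together as cells enter S phase, when NPAT, a target of cyclin E and CDK2, gathers at the histone gene clusters. Their mRNAs normally end in a stem-loop bound by SLBP in place of a poly(A) tail, and are degraded quickly when DNA synthesis stops. Many H2A and H2B genes lie head to head, so that a short stretch of DNA between their starts serves as promoter of both. Core histones form the nucleosome, and H1 binds the linker DNA between nucleosomes.

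Promoter stretches of 4 places to which the results below return are printed here, 5′ to 3′, from RefSeq (GRCh38.p14). The first is the DNA between H2AC14 and H2BC14, which moved in opposite directions in U266/s (chr6:27814778-27815021, plus strand, 244 bases). The stretch between H2BC21 and H2AC20 is the other pair with opposite readings, which are less certain (chr1:149886683-149886917, plus strand, 235 bases). Upstream of H1-5, the member with the deepest fall in U266/s and the largest difference between the lines, the 250 bases before the start are given (chr6:27867589-27867838, minus strand), and likewise for H4C2, which had the deepest fall of the H4 genes in U266/LR7 (chr6:26027284-26027533, minus strand). Capitals mark the CCAAT box, the TATA box as TATAAA, the octamer ATTTGCAT that POU factors bind, and the sequence AAACACA, each on either strand.
H2AC14 to H2BC14: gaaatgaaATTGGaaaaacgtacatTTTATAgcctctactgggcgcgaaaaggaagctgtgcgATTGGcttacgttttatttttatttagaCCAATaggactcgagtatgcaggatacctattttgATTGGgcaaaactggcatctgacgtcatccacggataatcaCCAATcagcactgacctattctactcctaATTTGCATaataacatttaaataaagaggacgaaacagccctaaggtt
H2BC21 to H2AC20: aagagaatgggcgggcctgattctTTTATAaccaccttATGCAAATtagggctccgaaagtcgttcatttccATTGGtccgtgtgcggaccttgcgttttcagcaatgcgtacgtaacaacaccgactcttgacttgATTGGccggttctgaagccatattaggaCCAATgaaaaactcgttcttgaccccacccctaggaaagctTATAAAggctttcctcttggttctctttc
H1-5: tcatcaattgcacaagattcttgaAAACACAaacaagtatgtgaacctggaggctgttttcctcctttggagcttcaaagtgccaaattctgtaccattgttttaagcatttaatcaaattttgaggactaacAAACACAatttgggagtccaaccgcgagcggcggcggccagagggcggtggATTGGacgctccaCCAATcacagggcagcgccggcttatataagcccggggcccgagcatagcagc
H4C2: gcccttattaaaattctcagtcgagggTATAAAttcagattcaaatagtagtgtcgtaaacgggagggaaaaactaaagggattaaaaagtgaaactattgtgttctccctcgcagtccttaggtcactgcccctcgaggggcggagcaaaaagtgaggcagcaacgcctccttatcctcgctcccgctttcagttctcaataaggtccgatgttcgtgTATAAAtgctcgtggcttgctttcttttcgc

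These motifs were counted on both strands in windows of 250 bases before to 50 after the start. A RefSeq window was found for 52 of the 58 genes, and not for H2AC12, H2BC19P, H3C11, H3C12, H4C1 and H4C3. CCAAT was present in 44 of 52 windows (84.6%), against 34.6% of 35093 promoters of the same length. It was present in every H1, H2A, H2B and H3 window and in 3 of 11 H4 windows. TATAAA was present in 34 windows (65.4%, against 11.5% of all promoters). ATTTGCAT was present in 10 of 13 H2A and 13 of 16 H2B windows, against 1.77% of all promoters, and in 0 windows of the other families. AAACACA, a sequence known from H1 promoters, was present in 6 of 6 H1 windows and in that of H2AC20, against 5.64% of all promoters. No searched motif contains another, although matches may share end letters, and a match is a description of the sequence only.

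With melphalan, histone genes of the parental line U266/s moved in both directions: 24 of 58 rose and 12 fell, against 18.4% of all genes higher and 24.9% lower. Their median fold was 0.35 log2 units, against 0.07 for all genes, and single folds ran from -2.86 (H1-5) to 2.69 (H2AC14). In the resistant line U266/LR7 0 rose and 20 fell, against 3.02% of all genes higher and 3.61% lower. The median there was -0.47, against 0.05 for all genes, and 53 of 58 folds were negative. At an unadjusted p under 0.05, limma gave 0 members higher and 33 lower, against 3703 of all 18417 genes in either direction. In U266/s the count of members that fell was 7 without the control array. Without the U266/LR7 array with melphalan alone, 10 members fell in U266/LR7.

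The U266/s arrays with melphalan are those with the narrower spread of values, and dim genes were higher there as a whole: the median fold of all genes was 0.05 to 0.23 in the 12 dimmest of 20 signal bins and -0.34 to -0.12 in the 8 brightest. Among genes above the median signal, which include 35 of the 58 members, 14 rose and 12 fell. All genes were not counted in that fit, so these counts have no share to be read against. Rescaling moved the median fold of all genes in U266/s by -0.10 (quantile normalization) and -0.16 (cyclic loess), and the members then numbered 21 rising and 11 falling, or 20 and 12. Median centring moved it the other way, by 0.06, and gave 27 and 11. All genes split into 3391 higher and 4593 lower as deposited, 4501 and 4281 with median centring, 2785 and 4641 with quantile and 2082 and 4879 with loess scaling. In U266/LR7, 18 to 21 members fell under median centring, quantile and loess scaling, and 0 rose.

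**Figure D1:**
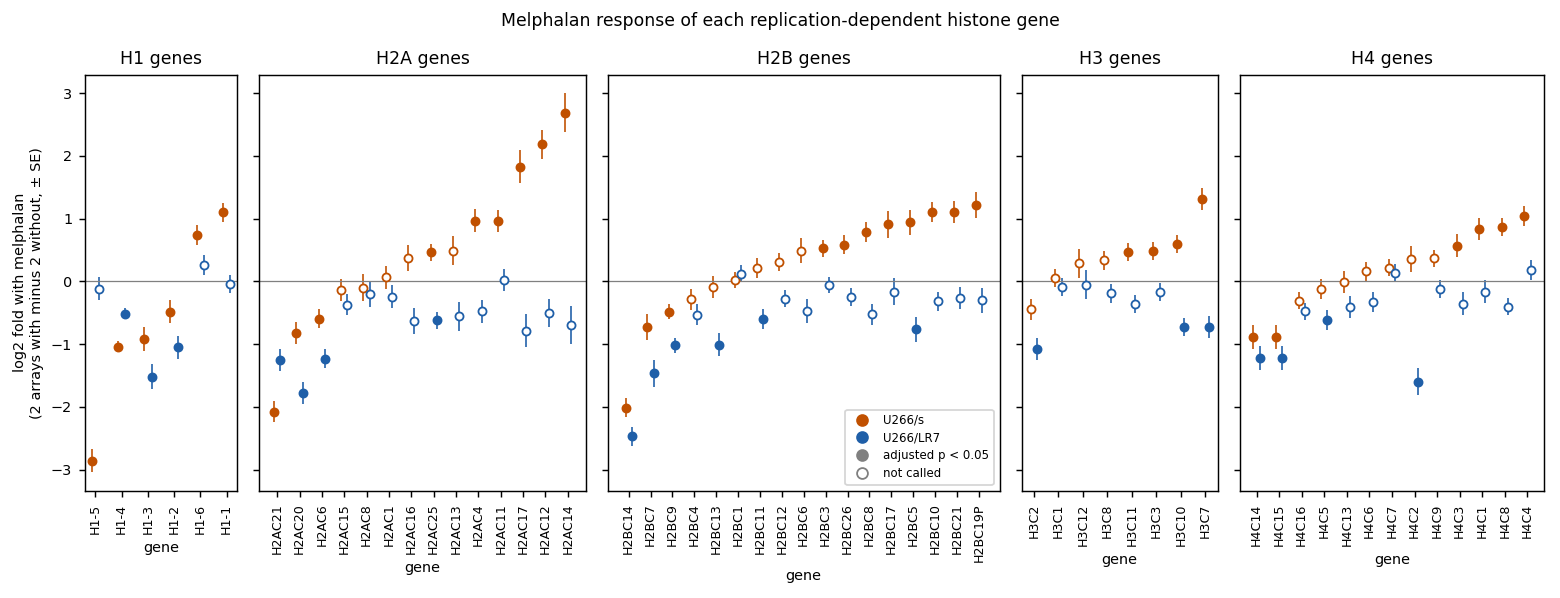
Log2 fold with melphalan of each of the 58 histone genes, by family and ordered by the U266/s fold, as 2 arrays with melphalan minus 2 without; bars are standard errors and filled points have an adjusted p under 0.05. U266/s points (orange) run from -2.86 to 2.69, while 53 of the 58 U266/LR7 points (blue) lie below 0.

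All 6 linker histone genes were called in U266/s, 4 lower and 2 higher, and 3 fell in U266/LR7. H1-4, the brightest member, read 13.77 on the U266/s control array and 13.71 with the inhibitors, against 12.85 with melphalan and 12.55 with both agents. In U266/LR7 the same 4 arrays read 13.97, 13.86, 13.42 and 13.37. Both melphalan arrays of a line were thus below both others, and the fold was -1.04 ± 0.09 in U266/s (limma adjusted p = 7.68e-06) and -0.52 ± 0.09 in U266/LR7 (adjusted p = 0.00614).

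H1-5 separated the lines. Its signal in U266/s was 10.47 on the control array, 9.95 with inhibitors, 7.29 with melphalan and 7.42 with both. In U266/LR7 it stayed between 5.69 and 6.04 on all 4 arrays, near the lower quartile of all genes (5.81 to 6.02 across arrays). The fall in U266/s was -2.86 ± 0.18 (limma adjusted p = 2.35e-06), against -0.11 ± 0.18 in U266/LR7 (adjusted p = 0.814), where a signal so low leaves little room to fall. H1-3 fell in both lines, by -0.92 ± 0.19 and -1.52 ± 0.19. H1-2 fell by -1.05 ± 0.18 in U266/LR7 and by -0.49 ± 0.18 in U266/s (limma adjusted p = 0.0493). Its U266/s call was lost under each of median centring, quantile scaling and loess scaling. On the deposited values it was lost with each cluster tested by itself (limma adjusted p = 0.0526) and, separately, without the intensity trend (limma adjusted p = 0.0518). Leaving out the control or the melphalan array of U266/s also lost it (-0.26 and -0.31). Without the U266/LR7 array with melphalan alone, the calls of H1-2 (-0.82) and H1-4 (-0.47) in U266/LR7 were lost as well.

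The 2 H1 genes that rose in U266/s were dim. H1-1 read 5.11 and 5.24 without melphalan and 6.25 and 6.30 with it (1.10 ± 0.14, limma adjusted p = 0.000121), while its 4 U266/LR7 arrays lay between 5.42 and 5.74. H1-6, the testis histone H1t, was under the lower quartile of genes on all 8 arrays, and its U266/s fold was 0.74 ± 0.16 (adjusted p = 0.00297).

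Among the 14 H2A genes, 6 rose and 3 fell in U266/s, and 4 fell in U266/LR7. H2A and H2B form the dimers on the outer faces of the nucleosome. H2AC14 read 5.11 on the U266/s control array and 6.05 with inhibitors, then 8.58 with melphalan and 7.94 with both. Its U266/LR7 arrays read 6.17, 5.62, 4.997 and 5.39 in the same order, so that the high values are confined to the 2 U266/s arrays with melphalan. The fold was 2.69 ± 0.31 in U266/s (limma adjusted p = 4.46e-05) and -0.70 ± 0.31 in U266/LR7 (adjusted p = 0.23). H2AC12 read 8.50 and 8.37 without melphalan in U266/s and 10.47 and 10.77 with it (2.19 ± 0.23). In U266/LR7 only the array with melphalan alone stood apart, at 7.86, against 8.84, 8.93 and 8.90 on the other three (-0.51 ± 0.23, adjusted p = 0.248). H2AC17 rose by 1.82 ± 0.26 in U266/s, while in U266/LR7 it read -0.79 ± 0.26 (adjusted p = 0.108).

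H2AC20, H2AC21 and H2AC6 fell in both lines. H2AC20 read 12.41 and 11.63 in U266/LR7 without melphalan, against 10.19 and 10.29 with it, a fold of -1.78 ± 0.17 (limma adjusted p = 0.000284). In U266/s its values were 12.29 and 11.80 against 11.34 and 11.11 (-0.82 ± 0.17), and this call was lost without the U266/s control array (-0.73). H2AC21 fell further in U266/s (-2.08 ± 0.17) than in U266/LR7 (-1.25 ± 0.17). A pair of clusters with identical values that name H2AC18, H2AC19, H2AC20 and H2AC21 together stood at 0.05 in U266/s (adjusted p = 0.762) and -0.69 in U266/LR7 (adjusted p = 0.0428). For U266/s the one-symbol and shared probes thus disagreed, and which copies they count is uncertain. H2AC6 fell by -0.60 ± 0.16 and -1.23 ± 0.16; the U266/s call was lost without the U266/s control (-0.52) or melphalan array (-0.55) and with quantile scaling (-0.43, adjusted p = 0.0503). H2AC25 was called higher in U266/s (0.46 ± 0.14) and lower in U266/LR7 (-0.62 ± 0.14), but the first call was lost without any single U266/s array (0.43 to 0.50) and under quantile (0.33) and loess scaling (0.24), and the second without the U266/LR7 array with melphalan (-0.71), with inhibitors (-0.54) or with both (-0.54).

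Of the 17 H2B genes, 8 rose and 3 fell in U266/s, and 6 fell in U266/LR7. H2BC14 had the largest fall of any member in U266/LR7, from 11.92 and 11.43 to 9.16 and 9.25 (-2.47 ± 0.15, limma adjusted p = 3.25e-05). In U266/s it went from 12.80 and 12.43 to 10.83 and 10.36 (-2.02 ± 0.15, adjusted p = 4.62e-06), so both lines showed a gap of over 1 log2 unit between the groups. H2BC7 and H2BC9 also fell in both lines, by -1.47 ± 0.21 and -1.02 ± 0.12 in U266/LR7 and by -0.73 ± 0.21 and -0.48 ± 0.12 in U266/s. Their U266/s calls were lost without the control array (-0.44 and -0.40) and without the melphalan array (-0.66 and -0.41), and that of H2BC7 also without the array with both agents (-0.80). H2BC13 was called lower in U266/LR7 alone (-1.01 ± 0.18, against -0.09 ± 0.18 in U266/s); the call was lost without either U266/LR7 array with melphalan (-0.90 and -1.12).

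The largest H2B rises in U266/s were those of the pseudogene H2BC19P (1.22 ± 0.20), H2BC21 (1.10 ± 0.18) and H2BC10 (1.10 ± 0.16). H2BC10 read 7.18 and 6.91 without melphalan and 8.20 and 8.08 with it, while its U266/LR7 arrays lay between 6.22 and 6.68. H2BC19P and H2BC21 are near-identical in sequence to other H2B copies. A cluster that names H2BC19P, H2BC20P and H2BC21 together stood at -0.06 in U266/s. Another, which names H2BC18, H2BP1 and H2BC21, rose by 2.62 there (limma adjusted p = 0.000756). The shared probes were thus split, and which copy the rises of H2BC19P and H2BC21 count is uncertain. H2BC5 rose in U266/s (0.94 ± 0.20) and fell in U266/LR7 (-0.76 ± 0.20, adjusted p = 0.0424). That U266/LR7 call was lost without the U266/LR7 control (-0.45), without that line's melphalan array (-0.45), with quantile scaling (-0.74, adjusted p = 0.0534) and without any single U266/s array (-0.76), where the fold was the same and the adjusted p was 0.0574 to 0.0778. A cluster that names H2BC5, H2BC12, H2BC12L and H2BC17 together was called in neither line (-0.135 in U266/s and -0.30 in U266/LR7). Which copy the H2BC5 readings count is therefore uncertain. H2BC12, the brightest H2B gene, was called in neither line (0.31 ± 0.14 and -0.28 ± 0.14). H2BC26 rose in U266/s by 0.58 ± 0.15, a call lost without the U266/s array with inhibitors (0.43) or with both agents (0.52).

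No H3 gene fell in U266/s, where 4 of 8 rose, and 3 fell in U266/LR7. H3 and H4 form the tetramer at the centre of the nucleosome. H3C7 read 8.73 and 8.59 in U266/s without melphalan and 10.21 and 9.73 with it (1.31 ± 0.17, limma adjusted p = 0.000128). In U266/LR7 it read 9.21 and 9.06 without and 8.29 and 8.53 with the drug (-0.73 ± 0.17, adjusted p = 0.032). In each line both melphalan arrays lay beyond both others, on opposite sides, although the U266/LR7 call was lost without the U266/LR7 control (-0.72), melphalan (-0.47), inhibitor (-0.73) or combined array (-0.98), and without the U266/s control or inhibitor array (-0.73 each). H3C10 likewise rose in U266/s (0.60 ± 0.14) and fell in U266/LR7 (-0.73 ± 0.14). The first call was lost without the U266/s control (0.47) or melphalan array (0.48), the second without the U266/LR7 array with melphalan (-0.74) or with both agents (-0.72). A cluster that names H3C10 and H2AC13 together had the same signs but was called in neither line (0.25 in U266/s and -0.725 in U266/LR7). H3C2, the brightest H3 gene, fell in U266/LR7 from 12.05 and 11.47 to 10.56 and 10.81 (-1.08 ± 0.17, adjusted p = 0.00434), a call lost without the U266/LR7 melphalan array (-0.74). In U266/s it stood at -0.45 ± 0.17 (adjusted p = 0.0552). H3C3 and H3C11, both dim, rose in U266/s by 0.48 ± 0.15 and 0.47 ± 0.14. Their calls were lost under quantile and loess scaling, that of H3C3 also without the U266/s control (0.33) or melphalan array (0.34), and that of H3C11 without the U266/s array with melphalan (0.51), inhibitors (0.34) or both (0.44).

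Of the 13 H4 genes, 4 rose and 2 fell in U266/s, and 4 fell in U266/LR7. The 2 that fell in U266/s were H4C14 and H4C15, which hold identical values and are also 2 of the 4 in U266/LR7. H4C2 read 9.95 and 9.30 in U266/LR7 without melphalan and 7.83 and 8.22 with it (-1.60 ± 0.21, limma adjusted p = 0.00154). Its U266/s arrays read 8.85 and 8.47 against 9.16 and 8.88 (0.36 ± 0.21, adjusted p = 0.187), so the drop belonged to the U266/LR7 arrays. H4C4 (1.04 ± 0.15), H4C8 (0.87 ± 0.14), H4C1 (0.83 ± 0.18) and H4C3 (0.57 ± 0.18) rose in U266/s and were not called in U266/LR7 (0.18, -0.40, -0.17 and -0.36). The U266/s call of H4C1 was lost without the U266/s inhibitor array (0.59), and that of H4C3 without the U266/s control (0.50), melphalan (0.44) or inhibitor array (0.63) and with quantile scaling (0.47).

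The identical values of H4C14 and H4C15 fell in both lines, by -0.89 ± 0.19 and -1.22 ± 0.19. Clusters that name H4C14 and H4C15 together gave 1.09 in U266/s and -0.04 in U266/LR7. Probes for this pair of near-identical genes therefore disagreed in direction in U266/s, and neither reading can be assigned to one gene.

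**Figure D2:**
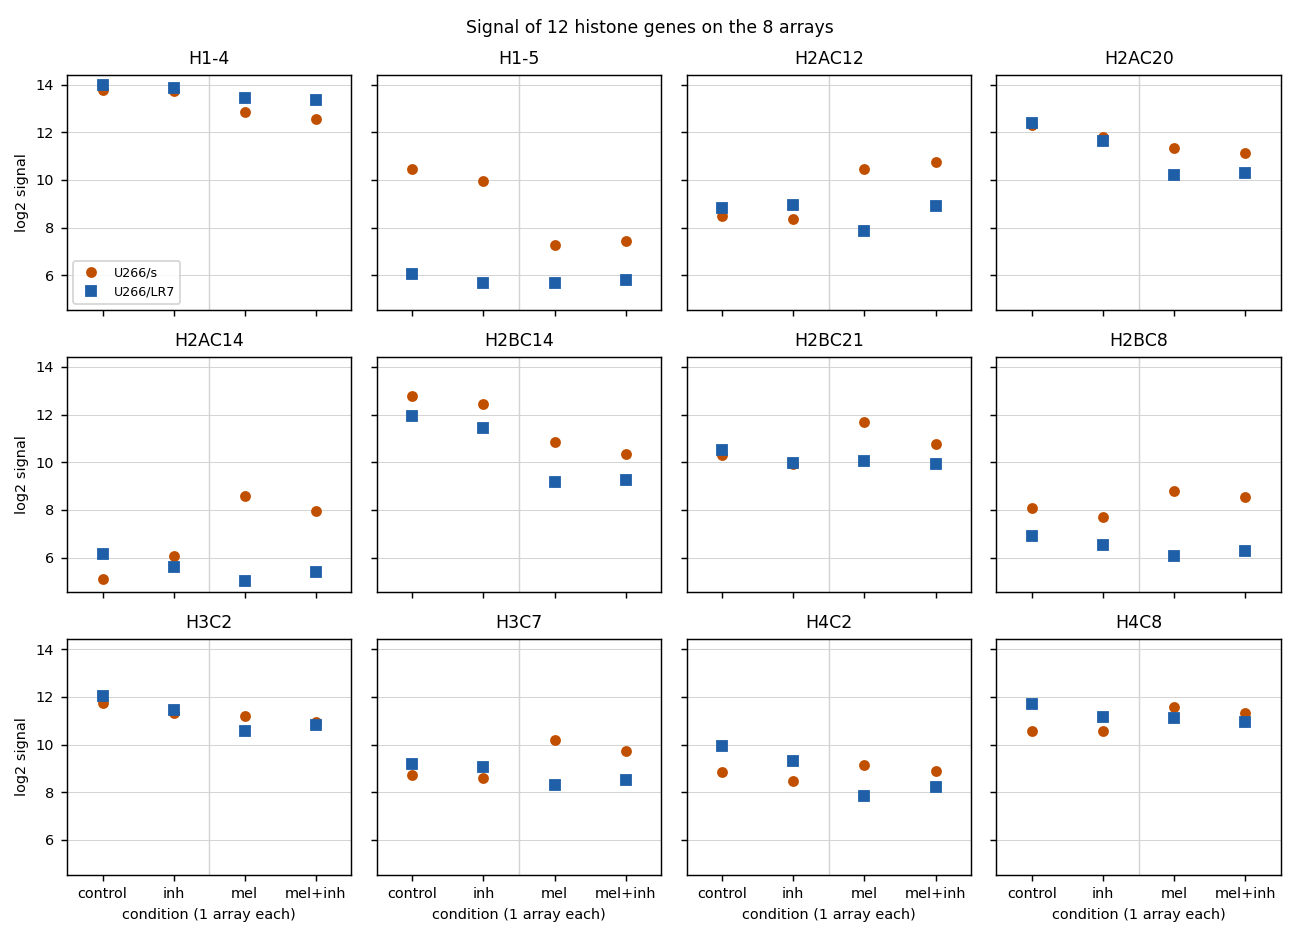
Log2 signal of 12 histone genes (1 panel each) on every array, with 1 point per array; orange circles are U266/s, blue squares U266/LR7, and inh and mel stand for the inhibitors and melphalan. H1-4, H2AC20 and H2BC14 are lower with melphalan in both lines, H2AC12, H2AC14 and H3C7 are higher with it in U266/s, and H1-5 lies between 5.69 and 6.04 on all U266/LR7 arrays.

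The difference between the lines in the melphalan response was tested as an interaction, U266/LR7 minus U266/s. It was negative for 31 members and positive for 3, against 5.99% of all genes negative and 17.9% positive. The median was -0.70, against -0.01 for all genes. By family, 9 of 14 H2A, 12 of 17 H2B, 4 of 8 H3, 5 of 13 H4 and 1 of 6 H1 interactions were negative. Of the 31, 26 combined a positive fold in U266/s with a negative one in U266/LR7, whatever the call in each line. Choosing genes by a negative interaction favours these signs, and the combination was not counted over all genes. The largest negative interaction was that of H2AC14 (-3.39 ± 0.43, limma adjusted p = 0.000386), followed by H2AC12 (-2.69 ± 0.33), H2AC17 (-2.61 ± 0.37) and H3C7 (-2.03 ± 0.25). H4C2 stood at -1.96 ± 0.30, H2BC5 at -1.70 ± 0.28, H2BC10 at -1.42 ± 0.22 and H4C8 at -1.27 ± 0.20.

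The 3 positive interactions, genes that fell more in the parental line, were H1-5 (2.74 ± 0.25), H2AC21 (0.83 ± 0.24) and H1-4 (0.52 ± 0.12). The count of negative interactions was 15 without the U266/LR7 melphalan array, 20 without the U266/s control and 19 without the U266/s inhibitor array. The count of positive ones was 1 without the U266/LR7 array with both agents and 1 without the U266/s inhibitor array. In those fits H1-4 stood at 0.47 each time, and H2AC21 at 0.49 and 0.87; H2AC21 also lost its call without the U266/LR7 inhibitor array (0.65), the U266/s control (0.78) and the U266/s array with both agents (0.71). With median centring all genes split into 2856 positive and 1652 negative interactions, against 3290 and 1104 as deposited.

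Setting the calls of both lines side by side, 11 members fell in both: H1-2, H1-3, H1-4, H2AC6, H2AC20, H2AC21, H2BC7, H2BC9, H2BC14, H4C14 and H4C15. Another 4 rose in U266/s and fell in U266/LR7 (H2AC25, H2BC5, H3C7 and H3C10), 20 were called, and higher, in U266/s alone, and 17 were called in neither line. H2BC11, H2BC13, H3C2, H4C2 and H4C5 were called lower in U266/LR7 alone and H1-5 in U266/s alone. Joint calls were not counted over all genes, so these joint counts have no share to be read against. The U266/LR7 call of H2BC11 (-0.60 ± 0.16, limma adjusted p = 0.0487) was lost in 8 of 8 fits without 1 array (-0.80 to -0.39) and in 4 of 8 other settings. That of H4C5 (-0.62 ± 0.16, adjusted p = 0.0423) was lost in 7 of 8 (-0.88 to -0.36), and kept without the U266/LR7 inhibitor array. A call in a single line does not by itself show a difference between the lines; of the 11 that fell in both, the interaction was called for H1-4, H2AC20, H2AC21 and H2BC9. The interaction of H2AC20 lost its call without any of 5 arrays, the control and melphalan arrays of U266/LR7 and the control, inhibitor and combined arrays of U266/s (-1.04 to -0.66). That of H2BC9 was lost without any array but the U266/LR7 inhibitor array (-0.64 to -0.44).

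Bright members fell more often than the others in both lines. Of the 15 members with a mean log2 signal above 10, 8 fell and 4 rose in U266/s, where 40.0% of all genes as bright fell and 16.4% rose. Of the 43 others 4 fell and 20 rose, against 22.8% and 18.7%. In U266/s, bright genes as a whole thus fell more often than dim ones. In U266/LR7 10 of the 15 bright members fell, against 3.81% of all genes as bright, and 10 of the 43 others, against 3.58%. The median fold of the bright members was -1.02 in U266/LR7 and -0.48 in U266/s. Signal here is that of a gene's own probes and does not rank the amounts of mRNA between genes. The split was made with the folds known, and the part of signal in the result was not tested.

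**Figure D3:**
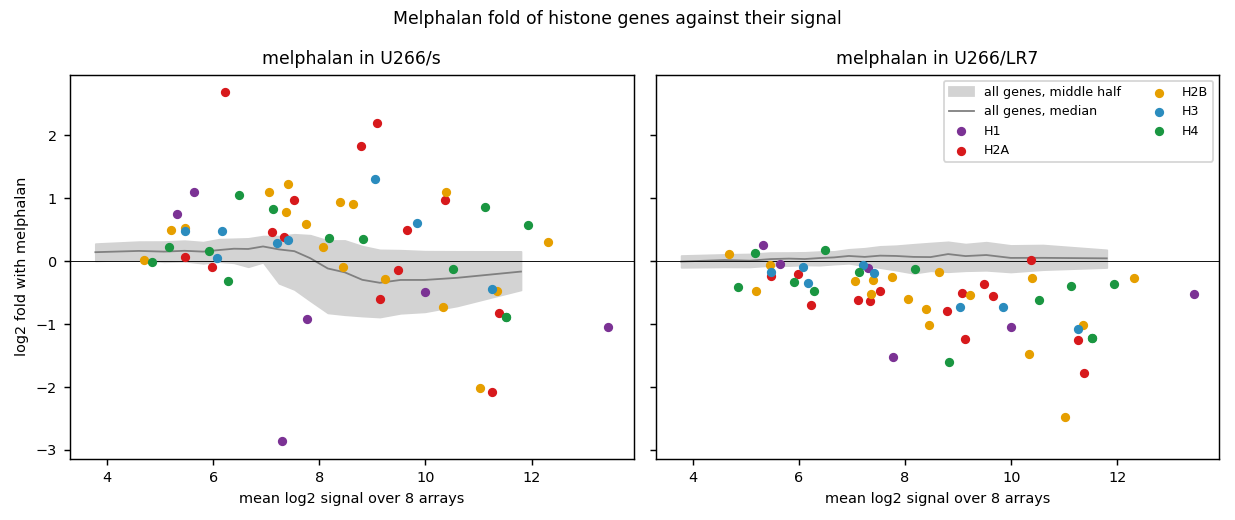
Log2 fold with melphalan against mean log2 signal over 8 arrays for the 58 histone genes (points, coloured by family) in U266/s (left) and U266/LR7 (right); the line and grey band give the median and the middle 50% of all 18417 genes in 20 signal bins. In U266/LR7 the points above a signal of 10 have a median of -1.02, below the band of all genes; in U266/s points lie on both sides of it.

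Counting arrays alone, both melphalan arrays lay above both others for 32 members in U266/s (40.0% of all genes) and below for 16 (33.4%). In U266/LR7 1 member lay above (33.1% of all genes) and 37 below (18.0%). In U266/LR7 the fall was seen in both array pairs, each 1 array against 1 with no test. Without the inhibitors 54 of 58 members were lower with melphalan (median -0.72), and with them 44 of 58 (median -0.21). One label gives no transfection for the array with melphalan alone. Inhibitors and transfection therefore cannot be told apart as sources of the gap between these medians. For all genes the shares lower in the U266/LR7 pairs were 43.2% and 39.4%. In U266/s the medians of the pairs were 0.29 and 0.34.

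Head-to-head genes did not always move together. Among the 52 members with a RefSeq window, 9 H2A and H2B pairs start 214 to 247 bases apart on opposite strands. H2AC12 and H2BC19P have no window and could not enter a pair. In U266/s, H2AC14 rose by 2.69 while H2BC14, 244 bases away, fell by 2.02, and H2AC20 fell by 0.82 while H2BC21, 235 bases away, rose by 1.10. The first pair shares the printed stretch with 5 CCAAT matches, 1 TATAAA and 1 ATTTGCAT, the second that with 3, 2 and 1. In the first pair H2AC14 was dim on the U266/s control array (5.11, under the lower quartile of genes of 5.89) and H2BC14 bright (12.80). Dim genes as a whole were higher and bright ones lower with melphalan in U266/s. The part of signal in the opposite signs of this first pair was not tested. As given above, shared probes disagreed with the one-symbol reading of H2AC20 and were split for H2BC21. The opposite signs of this second pair are therefore uncertain. The fall of H2AC20 in U266/s was lost without the U266/s control array (-0.73). In U266/LR7 the first pair stood at -0.70 ± 0.31 and -2.47 ± 0.15, and the second at -1.78 ± 0.17 and -0.27 ± 0.18, without opposite signs.

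In the other 7 pairs the gap was smaller. H2AC17 and H2BC17 both rose in U266/s (1.82 and 0.91), as did H2AC25 and H2BC26 (0.46 and 0.58). The H2BC17 call was lost without the U266/s melphalan or inhibitor array. Over the 8 fits without 1 array its fold ran from 0.66 to 1.17. The cluster that names H2BC17 with H2BC5, H2BC12 and H2BC12L stood at -0.135 in U266/s and was not called. H2AC11 rose (0.96) while H2BC11 was not called (0.22), and H2BC8 rose (0.79) while H2AC8 was not called (-0.10). H2AC6 fell (-0.60) beside H2BC4 (-0.28, not called). Neither gene of H2AC13 and H2BC13 (0.49 and -0.09) or of H2AC1 and H2BC1 (0.06 and 0.02) was called. In all, signs were opposite in 4 of 9 pairs in U266/s, with both genes called in 2, and in 2 of 9 in U266/LR7, with both called in 0.

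**Figure D4:**
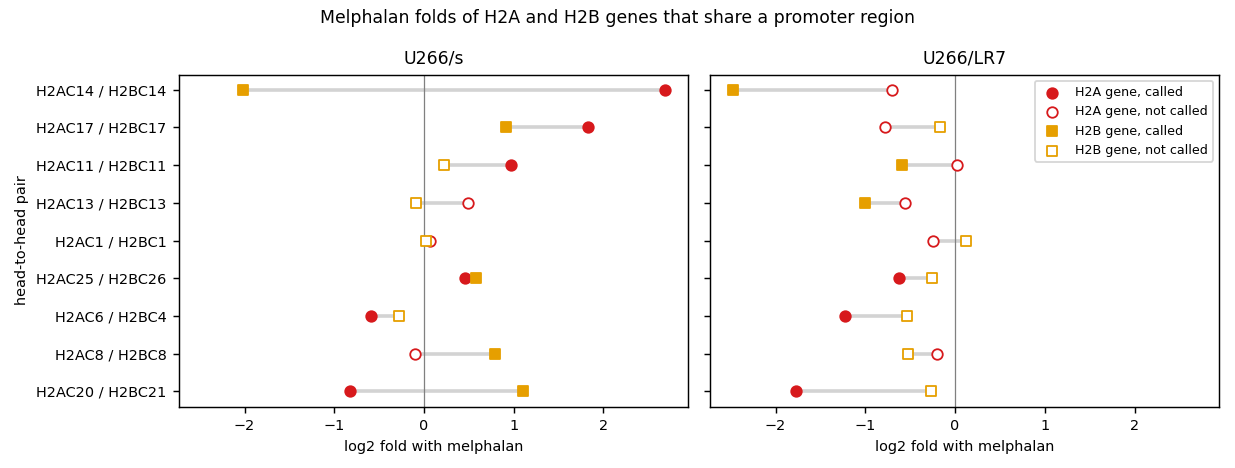
Log2 fold with melphalan of the H2A gene (circle) and the H2B gene (square) of 9 head-to-head pairs in U266/s (left) and U266/LR7 (right); filled symbols have an adjusted p under 0.05 and grey bars join a pair. In U266/s H2AC14 and H2BC14 lie at 2.69 and -2.02, on opposite sides of 0, and in U266/LR7 at -0.70 and -2.47.

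Before melphalan, 15 members were higher in U266/LR7 than in U266/s and 10 lower, against 16.9% and 17.8% of all genes, and the median difference was 0.22 (all genes -0.04). H1-5 had the largest difference: 10.47 and 9.95 in U266/s against 6.04 and 5.69 in U266/LR7, or -4.35 ± 0.18 (limma adjusted p = 1.35e-08). H3C8 (-2.36 ± 0.15), H2AC8 (-2.00 ± 0.21), H3C12 (-1.47 ± 0.23), H2BC8 (-1.19 ± 0.17) and H2BC14 (-0.93 ± 0.15) were lower too. H2AC8 and H2BC8 are one of the head-to-head pairs. On the other side stood H3C10 (1.84 ± 0.14), the pair H2BC26 and H2AC25 (1.58 ± 0.15 and 1.34 ± 0.14), H2BC13 (1.47 ± 0.18) and H4C2 (0.96 ± 0.21). H3C10 read 9.004 and 8.92 in U266/s and 10.94 and 10.67 in U266/LR7, with no overlap.

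The count higher in U266/LR7 was 9 without the U266/s control array and 8 without the U266/s inhibitor array, and the count lower was 6 without the U266/LR7 inhibitor array. The call of H4C2 was lost without the U266/s inhibitor array (0.87). Among genes above the median signal 5 members were lower, with no count of all genes to set beside it.

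With melphalan, 5 members were higher in U266/LR7 and 33 lower, against 27.7% and 24.0% of all genes, with a median of -0.54 (all genes -0.09). This comparison uses the same melphalan arrays as the interaction. H2AC14 (-3.07 ± 0.31), H3C8 (-2.89 ± 0.15) and H2BC8 (-2.50 ± 0.17) had the largest differences. H1-4 (0.70 ± 0.09), H2BC26 (0.75 ± 0.15), H2BC13 (0.56 ± 0.18), H3C10 (0.51 ± 0.14) and H2BC9 (0.42 ± 0.12) were the 5 that were higher. This count was 3 under quantile or loess scaling, 2 without the U266/LR7 array with both agents and 3 without the U266/s melphalan array; H2BC13 lost its call in each of the leave-out fits (0.45 in both), as it did without the U266/LR7 melphalan array (0.66). H2BC9 was lost in the same leave-out fits (0.33 and 0.35), and H3C10 without either U266/LR7 array with melphalan (0.51 and 0.52) or without the U266/s array with both agents (0.39). Among genes above the median signal 19 members were lower, again without a count of all genes.

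**Figure D5:**
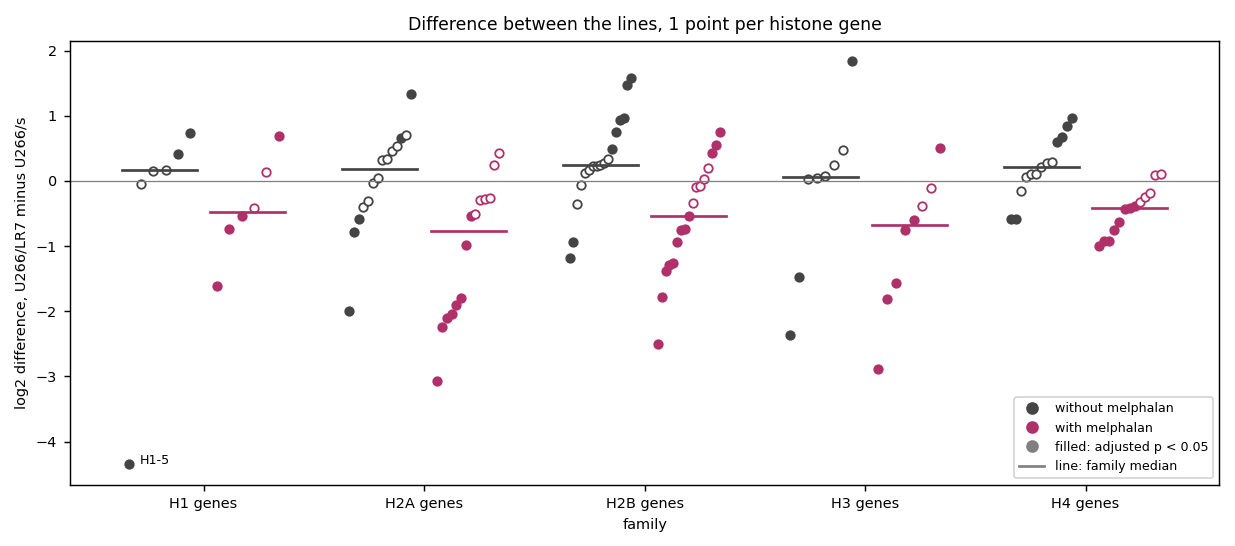
Log2 difference between U266/LR7 and U266/s for each histone gene, by family, without melphalan (dark) and with it (magenta), as 2 arrays against 2; filled points have an adjusted p under 0.05 and lines are family medians. Without melphalan the medians lie between 0.06 (H3) and 0.24 (H2B), with it between -0.76 (H2A) and -0.42 (H4).

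The inhibitors of miR-221 and miR-222, averaged over the lines and melphalan states, gave 0 called members in limma, against 0.0271% of all genes higher and 0.0163% lower. At an unadjusted p under 0.05 there were 13 members, against 1161 of all 18417 genes. The largest folds were H2BC21 (-0.51 ± 0.12, limma adjusted p = 0.416), H2AC21 (-0.44 ± 0.12, adjusted p = 0.498) and H2BC7 (-0.35 ± 0.15, adjusted p = 0.747). This missed threshold does not show that the inhibitors left these genes alone.

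Between single arrays the sign of the inhibitor difference depended on the condition. In U266/s 45 of 58 members were lower with the inhibitors without melphalan (77.6%, against 46.8% of all genes) and 41 with it (70.7%, against 47.8%). In U266/LR7 48 were lower without melphalan (82.8%, against 50.8%), but 14 with it (24.1%, against 52.6%). The median there was -0.36 without and 0.18 with melphalan. These are 1 array against 1, with no test, and in the pairs with melphalan the transfection tags differ. When the inhibitors were read on the 4 arrays without melphalan, an added fit that left 2 residual degrees of freedom, 51 of 58 members had a negative fold (46.1% of all genes). The median was -0.24, against 0.01 for all genes. No member was called there (20 of all genes were), and the smallest limma adjusted p was 0.0961, for H2AC20 (-0.63 ± 0.13). At an unadjusted p under 0.05 there were 21 members, but all genes were not counted at that level.

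Factors that make and process histone mRNA mostly fell in the parental line. Of 25 measured factors, 14 fell and 2 rose in U266/s, while 4 rose and 2 fell in U266/LR7. Of all genes 24.9% fell and 18.4% rose in U266/s, and 3.61% fell and 3.02% rose in U266/LR7. Of the interactions 13 were positive and 1 negative, against 17.9% and 5.99% of all genes. The alternatives were not run for this list or the lists that follow. NPAT, which activates the histone gene clusters, fell by 1.74 ± 0.17 with melphalan in U266/s (limma adjusted p = 1.61e-05), against 0.22 ± 0.17 in U266/LR7. Also lower in U266/s were TUT7, which adds uridines to histone mRNA ends (-1.50 ± 0.15), ERI1, the exonuclease that trims them (-1.34 ± 0.15), and CSTF3, a cleavage factor (-1.33 ± 0.16). SLBP, the stem-loop binding protein, was called in neither line (-0.02 ± 0.13 and 0.15 ± 0.13). In U266/LR7 CSTF3 (0.84 ± 0.16), CCNE2, a cyclin E (0.81 ± 0.21), ZNF473, a U7 snRNP partner (0.64 ± 0.15), and CDK2 (0.53 ± 0.13) rose, while CTIF, a translation initiation factor (-0.80 ± 0.15), and TUT4 (-0.48 ± 0.13) fell.

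Of 16 histone chaperones 5 fell and 2 rose in U266/s, shares near the 24.9% and 18.4% of all genes. In U266/LR7 limma called 0, with 4 higher and 1 lower at an unadjusted p under 0.05, against 3703 of all 18417 genes in either direction. ASF1A, which hands H3 and H4 to the assembly factors, fell by 1.36 ± 0.16, ATRX by 1.36 ± 0.24 and HAT1, which acetylates new H4, by 0.89 ± 0.15. Variant histones, a list apart from the members above, rose in 5 of 9 cases in U266/s, against 18.4% of all genes. These were H2AJ (1.05 ± 0.15), H3-5 (0.83 ± 0.13), H3-3B (0.78 ± 0.16), H2AX (0.52 ± 0.14) and H1-10 (0.50 ± 0.15). In U266/LR7 limma called 0 of the variants, also with 0 at an unadjusted p under 0.05.

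A list of S phase and replication genes was read as well, which does not measure the share of cells in S phase. Of 29 measured, 10 fell and 7 rose in U266/s, while 5 rose and 0 fell in U266/LR7 (8 and 1 at an unadjusted p under 0.05 in limma), where 20 histone genes fell. The U266/s shares are near those of all genes (24.9% lower, 18.4% higher). In U266/LR7 3.61% of all genes fell and 3.02% rose. At the unadjusted level 3703 of all 18417 genes passed there, in either direction. GINS1, a subunit of the replicative helicase, fell by 1.34 ± 0.14 in U266/s. CDC6, which loads that helicase, fell by 1.02 ± 0.14 in the parental line but rose by 0.74 ± 0.14 in the resistant one. GINS3 (0.78 ± 0.16), TK1, the thymidine kinase (0.57 ± 0.11), UHRF1 (0.57 ± 0.13) and RFC4, a clamp loader subunit (0.42 ± 0.11), also rose in U266/LR7. PCNA, the replication clamp, stood at 0.14 ± 0.14 there (adjusted p = 0.675). Whether the share of cells in S phase differed between the arrays was not tested.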

How the data were processed

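The deposited values are log2 signals that the authors made with Affymetrix Expression Console and RMA, per the submitters' processing notes; with versions and genome build not given in the sources used here. Labelling kits were Ambion WT Expression and Affymetrix WT Terminal Labeling, per the labels' protocols. The table holds 33297 transcript clusters, 19460 with 1 platform symbol, 1754 with several and 12083 with none, and 0 columns of no sample. Of the one-symbol clusters 19429 matched RefSeq by gene ID. The cluster of highest mean stood for a gene. limma 3.58.1 under R 4.3.3 fitted the models with an intensity trend, leaving 3 residual degrees of freedom, and Benjamini-Hochberg adjustment over 18417 genes at 0.05. The script was tested on simulated data. The number of arrays limits the precision.

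Members and lists were chosen with earlier results of these data known. Named were all H1 genes, in each other family the 3 largest absolute folds in each melphalan contrast, the 2 largest between the lines without melphalan and the 2 brightest members, the 3 largest inhibitor folds, and up to 4 called genes of each further list per contrast. SLBP, PCNA, RFC4, CDK2, TUT4, H1-10, H4C5, H2BC8, H3C12 and the remaining head-to-head genes were named after their values were seen. Of the lists, 25 of 26 histone mRNA factors, 16 of 16 chaperones, 9 of 12 variant histones and 29 of 30 replication genes were measured. Alternatives were 3 scalings, a filter on dim genes, other cluster rules, no intensity trend, further interactions and leaving out each array, run for the histone genes only.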

Additional observations from a re-analysis of the deposited data

Results flagged for a closer look

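The melphalan response differed between the lines by a test of the difference itself, the melphalan by line term in limma, for 31 histone genes with a lower fold in U266/LR7 and 3 with a higher one. The 3 were H1-5 at 2.74, H2AC21 at 0.83 and H1-4 at 0.52 log2 units, U266/LR7 minus U266/s.

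Among the named H1 and H2A genes with a lower fold in U266/LR7, H2AC14 stood at -3.39, H2AC12 at -2.69, H2AC17 at -2.61, H1-1 at -1.14, H2AC25 at -1.08 and H2AC20 at -0.95. The named H2B genes were H2BC5 at -1.70, H2BC19P at -1.52, H2BC10 at -1.42, H2BC21 at -1.37, H2BC13 at -0.92, H2BC26 at -0.84 and H2BC9 at -0.54. H3C7 stood at -2.03, H3C10 at -1.33, H3C11 at -0.83 and H3C3 at -0.65. H4C2 stood at -1.96, H4C8 at -1.27, H4C1 at -1.0, H4C3 at -0.93 and H4C4 at -0.86. Of the 34 calls, 24 were kept in every setting and 16 when any single array was left out.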

How the results depend on the processing

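Over all alternatives, 172 values of named genes lost a call, 76 gained one with the same sign, 3386 stayed on their side of the threshold and 0 called values changed sign. Of 36 members called in U266/s, 29 were kept in all settings that use every array and 22 in all fits without 1 array; in U266/LR7 these were 18 and 10 of 20. Among genes above the median signal, 14 members rose in U266/s, 5 were lower in U266/LR7 without melphalan and 19 with it. Fewer genes are tested there, and all genes were not counted. Members higher in U266/LR7 with melphalan numbered 3 with quantile and 3 with loess scaling. Averaged over melphalan states, 23 members were lower in U266/LR7 with the interaction in the model and 11 without it. All genes were not counted in these averaged fits, so the counts have no share to be read against. The design is balanced, so the line folds are the same in both fits. Only the residual spread differs, as it takes up the interaction when that term is left out. Leaving out 1 array gave 18 to 27 members rising and 7 to 13 falling in U266/s, and 10 to 20 falling and 0 rising in U266/LR7. It gave 15 to 39 negative and 1 to 3 positive interactions, 8 to 17 higher and 6 to 12 lower in U266/LR7 without melphalan, and 2 to 6 higher and 22 to 36 lower with it. For the inhibitors it was 0 throughout. No paired analysis was possible because each condition has 1 array and the labels give no animal, culture or batch that a replicate number could pair; the inhibitor term already sets arrays of like inhibitor state against each other. Loess moved the median of all genes by 0.13 in the interaction and with melphalan. A fit that left out an array of a pair assumed that the lone array varies like the others. The 7 members under the lower quartile of genes on all 8 arrays have little room to show a fall.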

Other observations

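The 20 clusters that name a histone gene among several symbols hold 13 distinct symbol sets and 17 distinct sets of values, and their values cannot be given to one gene. In a fit over all 33297 clusters, 6 rose and 1 fell with melphalan in U266/s (5 and 1 distinct sets), against 19.1% and 15.8% of all clusters. In U266/LR7 5 fell (4 distinct sets), against 0.889%, and interactions were called negative for 10 (8 distinct sets), against 8.47%. The medians in the lines were 0.05 and -0.69.

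The 4 clusters that name H3C13, H3C14 and H3C15 lay between -0.37 and -0.13 in U266/s and between -0.95 and -0.90 in U266/LR7, and none was called in either line. H3C4 with H2AC7 fell in U266/LR7 (-1.26, limma adjusted p = 0.0292). A pair of clusters naming H2BC18 and H2BP1 went opposite ways in U266/s, at 2.75 (adjusted p = 0.000828) and -0.52 (adjusted p = 0.0255), as did the one-symbol and the shared clusters of H4C14 and H4C15.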
